A study of Homo sapiens with 97 samples.

Results

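Mid-early dips are stretches of mid-early replicating sequence that lie directly between 2 early replicating domains, so that they are local delays inside early chromatin. In the 4 replication timing lists of the bone osteosarcoma line U2OS, touching intervals of the same class were joined into domains on chromosomes 1 to 22 and X. Dips were then selected by their timing alone, as mid-early domains of at most 1 Mb with an early domain on both sides. This gave 1557 dips of 4950 mid-early domains (31.5%) and of 13611 timing domains in all. Timing class, length and neighbours are therefore what chose the dips, and they are given as a description. Nascent strand sequencing (NS-seq) peaks and break sites played no part in the choice.

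The series holds 97 samples on DNA replication around double-strand breaks, and 6 deposited region lists were used here. The timing lists come from wild-type U2OS cells without treatment. The early and mid-early lists are attached to the merged G1 phase sample and the mid-late and late lists to the merged S phase sample. The NS-seq list, named as merged, is attached to an input sample of untreated AsiSI-U2OS cells, a U2OS line in which the restriction enzyme AsiSI cuts the genome after 4-hydroxytamoxifen (4OHT). Which libraries were merged, and whether 4OHT-treated cells are among them, was not stated in the labels. The break list holds AsiSI sites that overlap the nuclease MRE11 in HCT116 colorectal carcinoma cells. These cells lacked the end-joining ligase LIG4, are labelled AID_RAD21 (RAD21 is a subunit of cohesin) and received 300 nM 4OHT for 4 h. Timing, NS-seq and break sites thus come from 3 cell lines or derivatives. Each list is a single list with no replicates and no read depth, so errors below cover counting only.

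Eukaryotic chromosomes are copied from many origins, at which a helicase loaded in G1 phase is switched on during S phase. Origins that fire early form early replicating domains, and sequence between them is copied later, by forks that arrive from the sides or by origins of its own. NS-seq maps short, RNA-primed strands that were made close to such start sites. MRE11 is a nuclease that binds broken DNA ends at the first step of their processing.

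Most dips were short. Their median length was 88.0 kb, the lower and upper quartiles were 46.2 and 132.3 kb, and 5% were longer than 285.7 kb. Short length was not particular to dips. Among mid-early domains of at most 1 Mb, those between mid-late domains had a median of 86.6 kb. Those with early sequence on one side and mid-late on the other had a median of 72.35 kb. Between 20 and 50 kb there were 417 dips, between 50 and 100 kb 484, between 100 and 200 kb 465, and 189 were 200 kb or longer. The 1 Mb limit cut none away: the longest dip was 642.6 kb, and 0 mid-early domains between early domains exceeded 1 Mb. Only 2 dips were under 20 kb, where 37 of 22631 timing intervals were that short (0.163%). In all, dips covered 168.5 Mb, which is 25.6% of mid-early sequence and 5.71% of all listed sequence. A single timing interval made up 904 dips (58.1%), 2 intervals made up 448, and 205 were joined from 3 to 8 intervals.

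**Figure D1:**
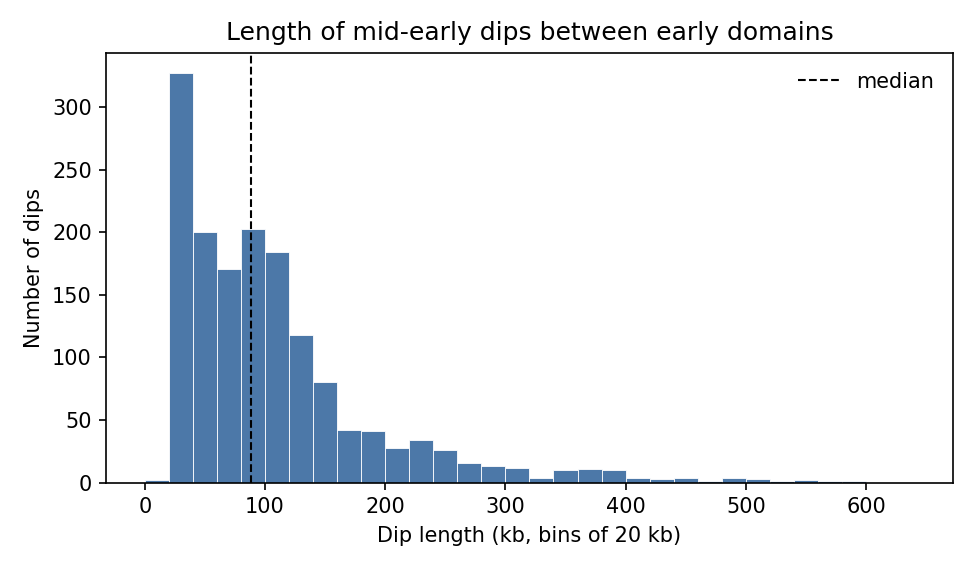
Number of dips (vertical axis) by length in kb (horizontal axis, bins of 20 kb), with the median as a dashed line. The counts peak just above 20 kb, a second rise lies near the median of 88.0 kb, and a long tail ends at 642.6 kb.

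The longest dip lay on chromosome 22 (22198801 to 22841400, hg19). It joined 8 intervals and held 5 NS-seq peaks, between early domains of 150.7 and 52.8 kb with 2 peaks. The next longest, on chromosome 20 (42221101 to 42820800, 599.7 kb), held 2 peaks. Dips of 569.5 kb on chromosome 11 (27409701 to 27979200), 546.2 kb on chromosome 1 (100767401 to 101313600) and 540.7 kb on chromosome 10 (62574701 to 63115400) held 0 peaks, and so did their flanks. At the other extreme, 2 dips of 0.1 kb (29001 to 29100) and 5.1 kb (31101 to 36200) lay close together on chromosome 20 beside early domains of 0.2 and 2.0 kb. They sit in the first listed bases of that chromosome, where the intervals are much shorter than elsewhere. The third shortest, on chromosome 3 (160163401 to 160183400), was 20 kb long. These 3 shortest dips held 0 peaks.

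Early sequence was broken up by dips nearly everywhere. The 2117 early domains that bordered a dip were 81.7% of the 2591 early domains and held 89.5% of early sequence. The median length of these flanking domains was 172.0 kb (quartiles 95.5 and 371.5 kb), and the longest reached 4377 kb. Among them, 997 lay between 2 dips, with a median of 210.8 kb. Of the 1557 dips, 916 were shorter than both flanks and 212 were longer than both.

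Dips followed one another in chains, with a single early domain between neighbours. Chains of 2 or more held 1357 dips (87.2%), 93 chains had 5 or more dips, and 200 dips stood alone. Because 81.7% of early domains bordered a dip, many such chains would form without any tendency of dips to group. Whether dips form chains more often than their number implies was not tested. The 3 longest chains had 13 dips each. On chromosome 20 such a chain spanned 29834901 to 35978600 (6.14 Mb), with 13 peaks in 1.35 Mb of dips and 9 peaks in its early domains (9.62 against 1.88 peaks per Mb). The chain on chromosome 1 spanned 42189401 to 48218400, with 6.20 peaks per Mb in dips (9 peaks) and 1.75 in early domains (8 peaks). On chromosome 12 (108596801 to 113334600) both kinds of sequence had 1.90 peaks per Mb, with 3 peaks in dips and 6 in early domains. The chains thus ranged from a clear local excess of peaks in dips to none. Dips that stood alone had 2.20 peaks per Mb (54 peaks), those in chains of 2 to 4 had 2.90 (230 peaks) and those in longer chains 3.54 (229 peaks). These densities have no intervals and take no account of chromosome, and their rise with chain length was not tested.

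Dips were present on all 23 chromosomes, from 19 on chromosome 21 to 158 on chromosome 1. They covered the largest share of chromosome 22 (10.4%), chromosome 17 (9.46%) and chromosome 19 (9.18%), and the smallest of chromosome 18 (2.91%). Against the early sequence of a chromosome the numbers were more even, from 1.61 dips per Mb of early sequence on chromosome 18 to 2.73 on chromosome X. The median distance of a dip from the nearer chromosome end was 29.6 Mb, against 29.3 Mb for flanking early domains. Within 5 Mb of an end lay 133 dips (8.54%), 8.74% of flanking early domains and 10.2% of all early domains. For mid-early islands (mid-early domains with mid-late sequence on both sides) the share was 11.9%.

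NS-seq peaks were denser in dips than in the early domains around them. The 1557 dips held 513 of the 3724 peaks on these chromosomes (13.8%), or 3.04 peaks per Mb (95% exact Poisson interval 2.79 to 3.32). Flanking early domains held 1289 peaks, or 1.88 per Mb (1.78 to 1.98). The ratio was 1.62 (95% interval 1.46 to 1.80, exact conditional binomial test on the 2 counts, two-sided, adjusted p = 1.15e-18 over 4 comparisons). All listed sequence had 1.26 peaks per Mb. The test treats peaks as independent, but peaks cluster: the variance of the number per dip was 3.95 times its mean, so these p values are too small. A quasi-Poisson model with chromosome as a term, chosen after seeing the data, takes its error from the spread between domains and gave a ratio of 1.74 (95% interval 1.49 to 2.03).

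Dips also held more peaks per Mb than the other kinds of early and mid-early sequence that were compared. Mid-early domains over 1 Mb or with other neighbours were not among them. Early domains that bordered no dip had 1.45 peaks per Mb (1.20 to 1.73, 117 peaks in 474 domains), so that dips were 2.10 times as dense (1.72 to 2.60, adjusted p = 7.94e-15, exact conditional binomial test). Mid-early ramps, which have an early domain on one side and a mid-late domain on the other, had 1.78 peaks per Mb (1.61 to 1.96, 401 peaks in 1892 ramps). The ratio of dips to ramps was 1.71 (1.499 to 1.96, adjusted p = 7.29e-16, exact conditional binomial test). Mid-early islands had the lowest value, 1.41 peaks per Mb (1.24 to 1.61, 228 peaks in 1451 islands), and the ratio of dips to islands was 2.15 (1.84 to 2.53, adjusted p = 6.31e-23, exact conditional binomial test). These p values too are too small, because peaks cluster. The quasi-Poisson model gave lower ratios with wider intervals. They were 1.96 (1.46 to 2.62) to other early domains, 1.58 (1.29 to 1.93) to ramps and 1.76 (1.40 to 2.20) to islands. Dips thus had the highest density of these 3 kinds of mid-early sequence, although all 3 carry the same timing label. Ramps and islands were not tested against each other. Without regions centred within 5 Mb of a chromosome end, the ratio was 3.97 to islands and 2.08 to ramps. Without chromosomes 7, 17, 19 and 22 it was 1.56 to islands and 1.59 to ramps, so islands were then no less dense than ramps. Both settings were chosen after seeing the data.

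**Figure D2:**
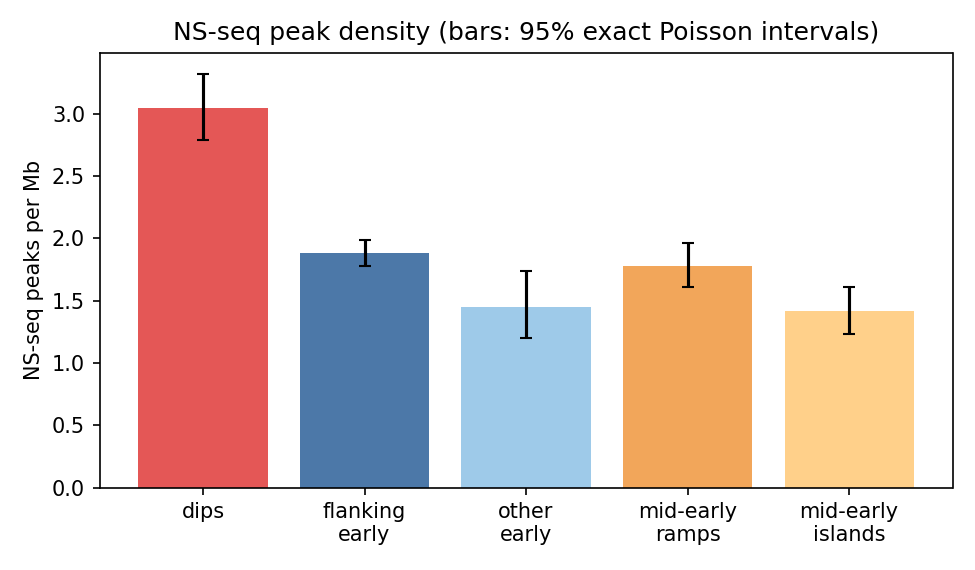
NS-seq peaks per Mb (vertical axis) in dips, flanking early domains, other early domains, mid-early ramps and mid-early islands, with 95% exact Poisson intervals as error bars. Dips reach 3.04 peaks per Mb, and the interval of 2.79 to 3.32 lies above those of the other kinds, which run from 1.41 to 1.88.

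Most dips held no peak at all. There were 1286 dips with 0 peaks, 166 with 1, 57 with 2, 29 with 3 or 4, and 19 with 5 or more. Those 19 dips held 138 peaks, 26.9% of the peaks in dips. A peak was present in 271 dips (17.4%, exact Clopper-Pearson interval 15.6 to 19.4%), in 11.8% of ramps (10.4 to 13.4%) and in 8.20% of islands (6.84 to 9.73%). Over all 13611 timing domains the share was 13.1% (12.5 to 13.7%), at a median length of 108.6 kb. Flanking early domains held a peak more often than dips (22.5%, 20.7 to 24.3%), but they were longer, with a median of 172.0 kb. Compared one by one with both flanks together, 248 dips had the higher density, 414 the lower and 895 were tied at 0. In 391 of these dips a peak lay in a flank only, and in 87 it lay in the dip only.

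Windows of equal length remove this difference in size where each window is read alone. In the 916 dips with flanks at least as long as the dip, 254 peaks lay in the dips (4.11 per Mb), 147 in the adjoining window on the left (2.38) and 185 in that on the right (2.996). A peak was found in 156 of these dips (17.03%), 99 left windows (10.8%) and 118 right windows (12.9%). The dip exceeded the mean of its windows in 128 cases, fell below it in 115 and equalled it in 673. This count cannot be read as a balance of dips and windows. Both windows together cover more sequence than the dip, so they are likelier to hold a peak at equal density. Over all dips, with flanks counted only within 1 dip length of the border, the ratio was 1.40 (1.23 to 1.58, exact conditional binomial test, p = 1.34e-07 without adjustment).

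Peak density was similar at all distances up to 150 kb inside dips and declined with distance from the border into early domains. Within 10 kb inside the border there were 2.83 peaks per Mb (2.27 to 3.49, 88 peaks), from 10 to 25 kb 3.45 (2.89 to 4.08) and from 50 to 75 kb 3.08 (2.40 to 3.90). Between 100 and 150 kb inside, a depth that wide dips alone reach, the value was 2.99 (2.10 to 4.14, 36 peaks). On the early side there were 2.35 peaks per Mb within 10 kb (1.84 to 2.95, 73 peaks), 2.75 from 10 to 25 kb (2.28 to 3.28) and 2.18 from 25 to 50 kb (1.84 to 2.56). The early side then fell to 1.54 from 100 to 150 kb (1.27 to 1.85) and 1.52 from 150 to 200 kb (1.21 to 1.88), and it was 1.81 beyond 300 kb (1.64 to 2.00). The intervals of both sides overlapped in each bin up to 50 kb from the border. They overlapped again from 75 to 100 kb (dips 2.10 to 4.15, early side 1.47 to 2.25). Deeper than 150 kb inside dips the values were 2.68 (1.42 to 4.57, 13 peaks) and, from 200 kb, 1.93 (0.526 to 4.94, 4 peaks), and these intervals overlapped those of early sequence beyond 100 kb. Within dips, 3 parts of equal length held 162 peaks on the left, 184 in the middle and 167 on the right.

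**Figure D3:**
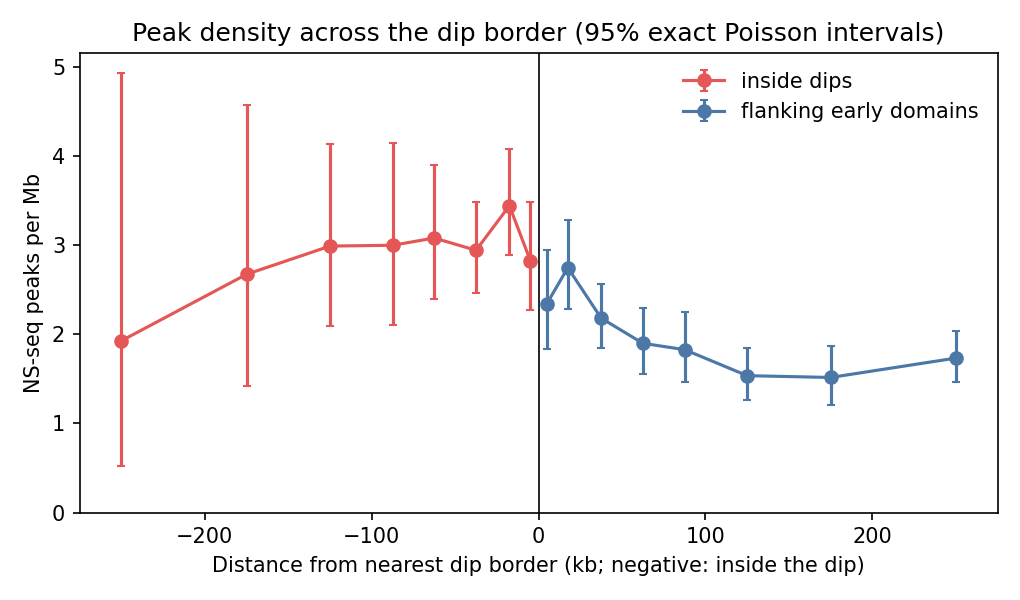
NS-seq peaks per Mb (vertical axis) by distance from the nearest dip border in kb (horizontal axis, negative inside dips, positive in flanking early domains), plotted at the centre of each distance bin with 95% exact Poisson intervals. Values inside dips lie near 3 peaks per Mb up to 150 kb from the border, and early values fall from 2.75 to 1.52.

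The density in dips exceeded that of islands and ramps at each length. Dips of 20 to 50 kb had 2.99 peaks per Mb (2.14 to 4.07), those of 50 to 100 kb 4.24 (3.59 to 4.96), those of 100 to 200 kb 2.53 (2.15 to 2.96) and those of 200 kb or more 2.85 (2.43 to 3.33). Islands of the same lengths had 1.09, 0.989, 1.28 and 1.85 peaks per Mb, and ramps had 2.12, 2.99, 1.46 and 1.52. The intervals of dips and ramps overlapped for 20 to 50 kb (ramps 1.55 to 2.83) and for 50 to 100 kb (ramps 2.43 to 3.64). Flanking early domains under 50 kb had 1.03 peaks per Mb (0.473 to 1.96, 9 peaks) and those over 1 Mb had 1.94 (1.76 to 2.13). Dips of a single timing interval had 3.86 peaks per Mb (3.38 to 4.39), those of 2 intervals 2.65 (2.25 to 3.11) and those of 3 or more 2.53 (2.11 to 2.999).

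**Figure D4:**
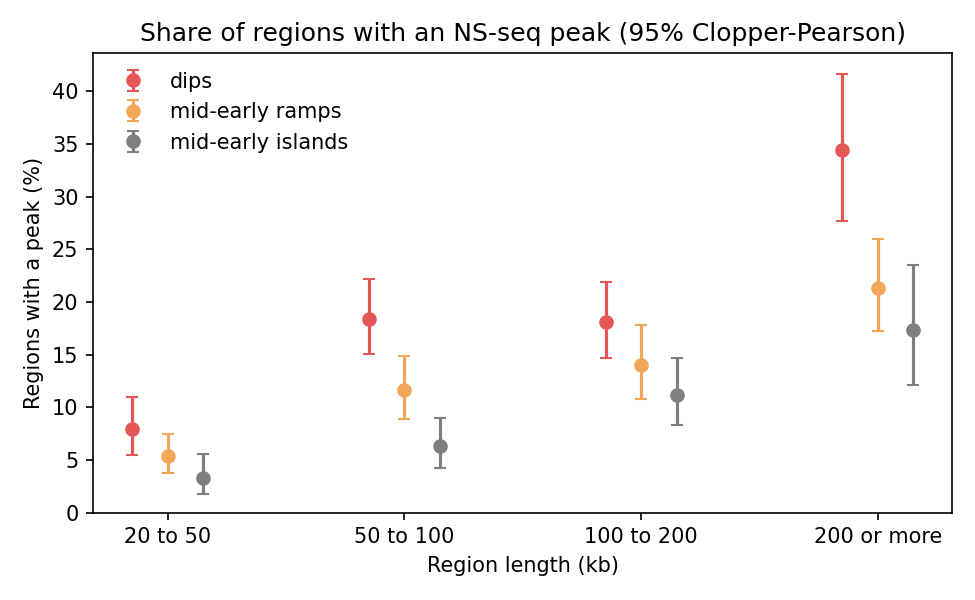
Percentage of regions with at least 1 NS-seq peak (vertical axis) by region length in kb (horizontal axis) for dips, mid-early ramps and mid-early islands, with 95% exact Clopper-Pearson intervals. Dips range from 7.91% at 20 to 50 kb to 34.4% at 200 kb or more and lie above islands at every length.

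By chromosome, dips were denser than their flanks on 17 of 23 and less dense on 6 (exact two-sided sign test over chromosomes, p = 0.0347). Chromosomes of a single list are not replicates. The call was lost with only the peaks at or above the median score, with only the dips of 50 kb or more, or with flanks limited to 1 dip length (15 of 23 each, exact sign test p = 0.21). Chromosome 19 had the densest dips, with 11.8 peaks per Mb against 7.03 in flanks (64 and 163 peaks). Chromosome 7 had 7.92 against 3.62 (70 and 162 peaks), chromosome 17 had 7.42 against 3.90 (57 and 165), and chromosome 22 had 6.84 against 5.06 (25 and 86). Chromosomes 20 (5.20 against 1.77), 16 (4.85 against 2.44), 10 (3.11 against 1.14) and 1 (2.81 against 1.35) followed the same direction. The largest ratio, 5.00, was on chromosome 6, from 15 peaks in dips and 9 in flanks (interval 2.05 to 13.0). Dips were less dense on chromosome 21 (1.81 against 3.12, 3 peaks in dips), chromosome 12 (2.19 against 2.50, 20 peaks), chromosome 18 (0.880 against 1.13, 2 peaks), chromosome X (0.342 against 0.527, 2 peaks) and chromosome 4 (0.153 against 0.228, 1 peak). Chromosome 13 had 0 peaks in 3.36 Mb of dips and 3 in flanks. Single chromosomes had few peaks: the 95% interval of the ratio lay above 1 on 10 chromosomes and below 1 on 0. Without chromosomes 7, 17, 19 and 22 together, the ratio was 1.63 (1.42 to 1.87, 297 peaks in dips), but the count by chromosome was 13 against 6 (exact sign test p = 0.167).

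**Figure D5:**
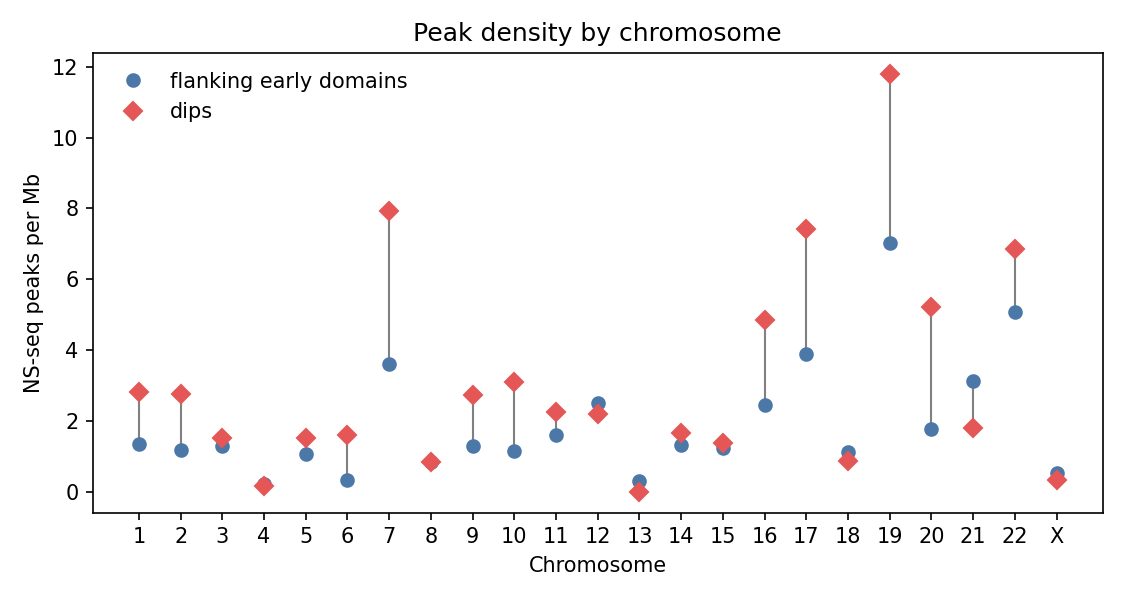
NS-seq peaks per Mb (vertical axis) in dips (diamonds) and in their flanking early domains (circles) for each chromosome (horizontal axis), with a line that joins both values. Dips lie higher on 17 of 23 chromosomes, with the widest gaps on chromosomes 19 and 7.

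Peaks were concentrated near chromosome ends in dips and flanks alike. Within 5 Mb of an end, dips had 10.2 peaks per Mb (137 peaks) and flanks 6.73 (282 peaks). Farther in, dips had 2.43 (376 peaks) and flanks 1.56 (1007 peaks). Without the regions near an end the ratio of dips to flanks was 1.55 (1.37 to 1.75, exact conditional binomial test, adjusted p = 2.57e-12).

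Of the dips, 12 held 6 or more peaks. The 10 with the most, where ties were settled by density, held 91 peaks in 1.66 Mb, 17.7% of the peaks in dips. Of these 10, 9 were denser than their flanks. They were chosen for their peaks, so this count is no support for an excess in dips. Over all dips, 248 were denser than their flanks, 414 were less dense and 895 were tied at 0. That count depends on length as well. Of the 1557 dips, 916 were shorter than both flanks, so flanks had more sequence in which to hold a peak. The tie at 6 peaks left out less dense dips on chromosome 7 (102058001 to 102251000, 31.1 peaks per Mb, flanks 4.11) and chromosome 11 (72317301 to 72539600, 27.0 peaks per Mb, flanks 4.97). The richest was chromosome 7, 1884001 to 2282600 (398.6 kb), with 28 peaks that scored 10.0 to 22.2, where the score is the value the authors gave each peak, with no stated scale. Its flanks of 253.3 and 260.0 kb held 20 and 9 peaks, so the surrounding early sequence was rich as well (70.2 peaks per Mb in the dip, 56.5 in the flanks). Without this dip the genome-wide ratio was 1.54. Also on chromosome 7, the dip at 5334001 to 5448400 held 9 peaks in 114.4 kb, against 5 and 24 peaks in flanks of 408.0 and 1409 kb (78.7 and 16.0 per Mb). The chromosome 7 dips at 1315201 to 1410500, 2542601 to 2619200 and 524501 to 677500 held 8, 6 and 6 peaks. The last of these was the exception, with 39.2 peaks per Mb in the dip and 40.0 in its flanks.

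The other 5 of these dips lay on chromosomes 1, 12, 16, 17 and 19. On chromosome 12 (6924601 to 7006800, 82.2 kb) there were 8 peaks, or 97.3 per Mb, the highest density of the 10, with 16 peaks in the flanks (37.1 per Mb). On chromosome 19 (42665701 to 42921400, 255.7 kb) there were 7 peaks, against 3 in the 143.2 kb on the left and 0 in the 926.6 kb on the right. The dip on chromosome 16 (1188201 to 1419000, 230.8 kb) also held 7, between early domains of 34.3 and 20.4 kb with 1 peak. On chromosome 17 (77051701 to 77201000, 149.3 kb) the dip held 6 peaks and its flanks 2. The dip on chromosome 1 (161326001 to 161425600, 99.6 kb) held 6, with 0 peaks in the early domain on its left and 7 in that on its right. On chromosomes 16, 17 and 19 most of these peaks thus lay in the dip, although the flanks on chromosome 16 were short, and on chromosome 12 most lay in the flanks.

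Peaks in dips were not stronger than peaks in flanks by score. The score in dips was 12.2 ± 2.26 (mean and SD, 513 peaks; median 11.4, range 10.0 to 23.2), and in flanks it was 12.4 ± 2.34 (1289 peaks; median 11.6, range 10.0 to 21.8). All peaks on these chromosomes had a median of 11.8. The means differed by far less than 1 SD, and the difference was not tested. Among peaks at or above the median score, the density ratio of dips to flanks was 1.47 (1.25 to 1.72, exact conditional binomial test, adjusted p = 5.08e-06).

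Break sites showed no detectable difference between dips and flanks. MRE11-bound AsiSI sites numbered 12 in dips, or 9.30% of 129 sites (exact Clopper-Pearson interval 4.90 to 15.7%), and 57 in flanking early domains. Dips were 5.71% of all listed sequence, which had 0.0437 sites per Mb (exact Poisson interval 0.0365 to 0.0519). The densities were 0.0712 per Mb in dips (exact Poisson interval 0.0368 to 0.124) and 0.0831 in flanks (0.0629 to 0.108). Their ratio was 0.857 (0.418 to 1.62, exact conditional binomial test, p = 0.762). Timing was read in U2OS cells and MRE11 in HCT116 cells, so whether these dips exist in the cells that were cut is not known. Sites in flanks lay a median of 178.1 kb from the nearest dip, and 9 of 57 lay within 50 kb of one. When flanks were limited to 1 dip length, the ratio was 1.07 (0.457 to 2.45, 12 and 15 sites, exact conditional binomial test, p = 0.849).

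The 12 sites fell into 12 different dips, which had a median length of 90.9 kb. They lay 7.43 to 59.8 kb from the nearer border (median 15.8 kb). Of these dips, 8 also held an NS-seq peak (14 peaks in 1.40 Mb), where 17.4% of all dips held one. For the flanking early domains with a site the numbers were 23 of 52 (44.2%), and these domains had a median length of 656.3 kb. These counts are small and were not tested. In the chromosome 22 dip (20790501 to 21009400), which held 4 peaks, a peak with a score of 19.3 overlapped the site at 20850307 to 20850314. The chromosome 19 site (42497855 to 42497862) had a peak with a score of 17.2 at 93 bp, in a dip of 89.3 kb with 2 peaks. On chromosome 2 the dip at 74720301 to 74804900 had its 1 peak 3382 bp from the site, and its flanks of 1203 and 331.6 kb held 0 peaks. In these 3 dips the site and a peak were close neighbours.

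At other sites the peak in the same dip was farther away. The distance was 8467 bp on chromosome 8 (dip 22408601 to 22501100), 14409 bp on chromosome 1 (110022201 to 110074000), 37.6 kb on chromosome 17 (80183701 to 80309700), 54.9 kb on chromosome 9 (130502801 to 130711100) and 72.9 kb on chromosome 17 (20717401 to 20963100). The remaining 4 dips with a site had 0 peaks inside and 0 in their flanks: chromosome 6 (31098001 to 31181100), chromosome 8 (66509801 to 66610700), chromosome 10 (3818101 to 3841200) and chromosome 11 (67760601 to 67838000). Their nearest peaks lay 1117, 5158, 676.9 and 369.8 kb away. Sites in dips thus ranged from overlap with a peak to a distance of 5158 kb.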

How the data were processed

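Per the submitters' processing notes the build was hg19 and MACS2 was used, with no version or role. The parameters, the way timing classes were made and the merging of NS-seq libraries were not given in the sources used here. Positions stand in the authors' deposited lists, and the NS-seq list adds a score per peak with no stated scale. All peaks are 1000 bp wide, break sites 8 bp, and timing borders lie on a grid of 100 bp. Read depth is unknown.

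Peaks and sites were placed by their midpoints, and each flanking domain was counted once also where it borders 2 dips. Densities have exact Poisson intervals at 95% confidence, and ratios were tested by an exact conditional binomial test (scipy 1.17.1, threshold 0.05) with Benjamini-Hochberg adjustment over 4 peak comparisons. Scripts were tested on simulated data with independent peaks, which says nothing about error rates where peaks cluster. The regions, comparisons and rules were chosen with earlier results of these data known. Regions named are the 10 dips with the most peaks (ties by density, then position), the 5 longest, the 3 shortest, the 3 longest chains and every dip with a break site. Alternatives changed peak placement, score, clustering, dip length, flank width and chromosomes. No genes or sequences are given, because no hg19 annotation or genome was used here.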

Additional observations from a re-analysis of the deposited data

How the results depend on the processing

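Over 6 results, 189 alternatives were computed, 28 of them chosen after seeing the data. Of the 189, 182 kept the same sign and stayed on the same side of 0.05. That number says little alone, because most alternatives left out only 1 chromosome. The break site ratio was also never near a call (lowest p = 0.511, exact conditional binomial test). The ratio of peak density in dips to flanks ran from 1.40 to 1.74, and from 1.57 to 1.68 when each chromosome was left out in turn. The ratios to other early domains, ramps and islands ran from 1.67 to 2.75, 1.38 to 2.08 and 1.56 to 3.97. The count of chromosomes with denser dips lost its call in 6 of 12 settings. It was 15 of 23 for peaks at or above the median score, for dips of at least 50 kb and for flanks within 1 dip length (exact sign test p = 0.21). It was 16 without windows of more than 20 peaks and without 10 kb at timing borders (exact sign test p = 0.0931), and 13 without chromosomes 7, 17, 19 and 22 (exact sign test p = 0.167). The break site ratio turned to 1.07 with flanks within 1 dip length, on 15 flank sites. No paired analysis was possible because each list is a single list without replicate numbers; this is about replicates, and dips were set beside their own flanks in the report. Weak origins below the lowest listed score, and the depth behind each peak, are unknown.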

Other observations

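The other local timing minima were read the same way, as domains of at most 1 Mb against the next earlier domains on both sides. Mid-late dips between mid-early domains had 1.99 peaks per Mb (551 peaks in 1825 dips), against 1.49 in their flanks, a ratio of 1.33 (1.18 to 1.501). Late dips between mid-late domains had 0.571 (174 peaks in 1584 dips), against 0.710 in their flanks, a ratio of 0.805 (0.665 to 0.971). For the mid-early dips between early domains the ratio was 1.62, so the values of the 3 steps ran from above 1 to below 1. Among local timing maxima, early domains between mid-early domains had 1.83 peaks per Mb against 2.33 in their flanks, a ratio of 0.785 (0.715 to 0.862). Mid-early domains between mid-late domains had a ratio of 1.05 (0.9003 to 1.23), and mid-late domains between late domains had 1.91 (1.49 to 2.45). These intervals cover counting error only, the same domains serve as dip and flank at different steps, and the differences between steps were not tested.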
